A study of Mus musculus with 6 samples.

Results

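The regions described here are 2032 narrower stretches of chromatin near gene ends at which a peak of acetylated histone H3 lysine 27 (H3K27ac) was listed in both mesothelial and both epithelial libraries from the fetal mouse lung. They were selected on the peak lists themselves. Overlapping peaks of the 4 lists were merged into 132165 regions, of which 4281 were overlapped by a peak of every list, and the members are those under 5 kb wide that lie within 2 kb of either end of an annotated gene. They make up 47.5% of the regions with a peak in all 4 lists and 1.54% of all merged regions. Presence in all 4 lists, the width and the nearness to a gene end are therefore descriptions and were not tested.

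The mark was mapped by CUT&RUN: a nuclease tethered to an antibody releases the DNA around H3K27ac. Cells came from pooled wildtype lungs at E16.5, from timed matings of Myrf Fl/Fl mice for which the labels name no Cre. Mesothelium, the outer cell layer of the lung, was sorted as PDPN+, EPCAM-, CD45-, CD31- and DAPI-, and epithelium as PDPN+, EPCAM+, CD45-, CD31- and DAPI-, with 2 libraries each. Cell numbers in the titles differ between libraries and tend to be larger in epithelium, and 2 IgG libraries from epithelium were not analysed here. The labels do not tie libraries to different animals. Each p-value below therefore covers the variation among 4 libraries, possibly of technical origin alone.

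A promoter is the DNA around a transcription start, where general factors and RNA polymerase II assemble. Nucleosomes beside an active start carry H3K27ac, placed by the acetyltransferases p300 and CBP, and the mark also lies on active enhancers. Genes that most cells need for protein synthesis, folding and respiration commonly start in CpG islands, short stretches rich in the dinucleotide CG, whereas genes of a single cell type depend more on distal enhancers.

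The promoter windows below show the DNA under these shared peaks. They belong to coding genes whose regions ranked highest in all 4 lists and whose window lay wholly within bases covered in all 4 libraries, which held for 424 of the 1969 coding windows at members. Each is 300 bases, from 250 before to 50 after an annotated start, written 5′ to 3′ on the gene's strand, from RefSeq on GRCm38.p6, the assembly that mm10 names. Capitals mark matches to the motifs searched on either strand: GGGCGG (the GC box of SP and KLF factors) in Dis3l, Eif3b and Serpinb9, TGACGTCA (the cyclic AMP response element, CRE) in Flcn, TATAAA and the TEAD letters GGAATG in Eif3b, CCGGAAG (ETS factors) in Fbxo8 and AAGATGGC (YY1) in Cpsf2.
Dis3l, chr9:64340408-64340707, minus strand: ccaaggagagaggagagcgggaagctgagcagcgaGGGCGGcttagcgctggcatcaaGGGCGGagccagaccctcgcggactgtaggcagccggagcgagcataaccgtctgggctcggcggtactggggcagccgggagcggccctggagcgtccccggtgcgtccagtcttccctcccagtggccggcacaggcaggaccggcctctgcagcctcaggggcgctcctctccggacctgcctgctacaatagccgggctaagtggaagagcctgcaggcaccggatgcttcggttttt
Flcn, chr11:59809990-59810289, minus strand: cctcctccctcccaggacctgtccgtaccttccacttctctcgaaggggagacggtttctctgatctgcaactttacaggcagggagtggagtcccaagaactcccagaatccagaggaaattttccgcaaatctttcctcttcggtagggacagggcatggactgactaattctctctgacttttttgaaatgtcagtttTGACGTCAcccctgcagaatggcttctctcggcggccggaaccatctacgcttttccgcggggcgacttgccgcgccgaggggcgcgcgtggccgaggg
Eif3b, chr5:140419055-140419354, plus strand: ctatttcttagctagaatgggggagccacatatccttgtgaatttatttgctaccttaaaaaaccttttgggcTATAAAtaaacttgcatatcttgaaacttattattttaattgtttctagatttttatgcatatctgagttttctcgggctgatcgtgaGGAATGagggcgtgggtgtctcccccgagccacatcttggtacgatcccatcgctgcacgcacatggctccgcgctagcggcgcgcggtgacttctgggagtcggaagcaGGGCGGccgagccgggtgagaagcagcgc
Fbxo8, chr8:56550904-56551203, plus strand: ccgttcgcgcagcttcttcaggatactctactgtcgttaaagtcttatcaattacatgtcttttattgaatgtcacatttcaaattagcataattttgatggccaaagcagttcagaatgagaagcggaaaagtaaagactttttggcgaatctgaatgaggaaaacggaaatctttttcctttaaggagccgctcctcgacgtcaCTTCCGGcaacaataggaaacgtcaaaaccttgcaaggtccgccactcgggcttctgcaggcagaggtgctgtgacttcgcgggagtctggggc
Cpsf2, chr12:101975724-101976023, plus strand: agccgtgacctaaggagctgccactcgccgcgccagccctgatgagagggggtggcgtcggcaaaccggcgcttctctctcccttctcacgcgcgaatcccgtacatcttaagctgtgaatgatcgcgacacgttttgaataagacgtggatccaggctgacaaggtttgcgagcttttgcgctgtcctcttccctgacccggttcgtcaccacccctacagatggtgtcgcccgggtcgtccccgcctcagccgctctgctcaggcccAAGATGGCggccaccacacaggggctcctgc
Serpinb9, chr13:33004291-33004590, plus strand: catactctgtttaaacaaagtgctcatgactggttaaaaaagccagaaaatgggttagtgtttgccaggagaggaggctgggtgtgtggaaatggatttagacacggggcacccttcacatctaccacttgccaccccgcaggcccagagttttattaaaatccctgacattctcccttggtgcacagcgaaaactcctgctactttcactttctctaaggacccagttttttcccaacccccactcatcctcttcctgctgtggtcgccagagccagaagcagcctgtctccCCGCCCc

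The windows differed in base composition. The Dis3l window, of an exonuclease of RNA decay, had 68.0% G and C and 24 CG dinucleotides, an observed over expected CpG ratio of 0.697. Flcn encodes folliculin, a regulator of nutrient signalling, and its window had 56.7% G and C, 20 CG dinucleotides and a ratio of 0.833. Fbxo8, an F-box gene, had 45.7% G and C but a ratio of 1.02. The Cpsf2 window, of a subunit of the complex that cleaves the ends of mRNAs, overlapped on the other strand the window of Ndufb1, a subunit of respiratory complex I, and the 2 starts lay 21 bp apart. Serpinb9, a serine protease inhibitor gene, was the exception with 5 CG dinucleotides and a ratio of 0.265.

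Promoters at members were on the whole rich in CG. Over the 1969 windows of 1665 coding genes at members, the median content of G and C was 62.3% and the median CpG ratio 0.837, against 56.3% and 0.567 over all 21263 coding windows. A window with more than 50% G and C and a ratio above 0.6 was counted as rich in CpG. By that definition 79.4% of members' windows were rich in CpG, against 44.9% of all coding windows and 28.8% of the 13164 windows of coding genes with no peak in any list. The share was 68.2% at regions shared by all 4 lists but at least 5 kb wide, 72.4% at gene ends with peaks of mesothelium only and 59.3% at gene ends with peaks of epithelium only. Sequence took no part in the choice of members, and these shares are descriptions over windows that can share a gene.

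Motif matches at members were more frequent than over all coding windows for some factors and less frequent for others, as the plot of promoter content shows. The ETS letters CCGGAAG were in 24.9% of members' windows and 11.6% of all coding windows. The GC box was in 67.3% and 46.2%, the NRF1 letters GCATGCGC in 6.40% and 3.52%, the YY1 letters in 5.64% and 3.05%, and the element TCTCGCGA in 3.35% and 1.41%. The CRE was in 3.76% and 2.23%, the E2F letters GGCGGGAA in 4.77% and 2.85%, and the E-box CACGTG in 9.75% and 7.84%. TATAAA was less frequent, with 5.23% against 12.6%, as were the AP-1 letters TGANTCA with 4.47% against 6.99% and the TEAD letters with 11.0% against 13.6%. CCAAT, the NF-Y letters, was in 38.5% and 38.2%. Gene ends with mesothelium peaks only had similar or higher shares for most of the letters frequent at members. Their windows held the ETS letters in 27.6%, the GC box in 71.7%, the NRF1 letters in 6.56%, the YY1 letters in 5.62%, TCTCGCGA in 3.75%, the CRE in 4.22% and the E2F letters in 5.62%, and TATAAA in 5.15%. The wider shared regions near gene ends had the GC box in 67.5%, the CRE in 3.77% and the E2F letters in 6.51%. They had fewer ETS (15.8%), NRF1 (4.11%) and YY1 letters (2.05%) than members. Epithelium-only gene ends had the ETS letters in 18.1%, the GC box in 58.8%, the NRF1 letters in 3.98%, the YY1 letters in 3.10% and TCTCGCGA in 1.33%. Some letters overlap others, such as the E2F letters and the GC box, and a match is a run of letters, not a measured binding site. Members' windows were also richer in G, C and CG, and the part of base composition in these shares was not tested.

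**Figure D1:**
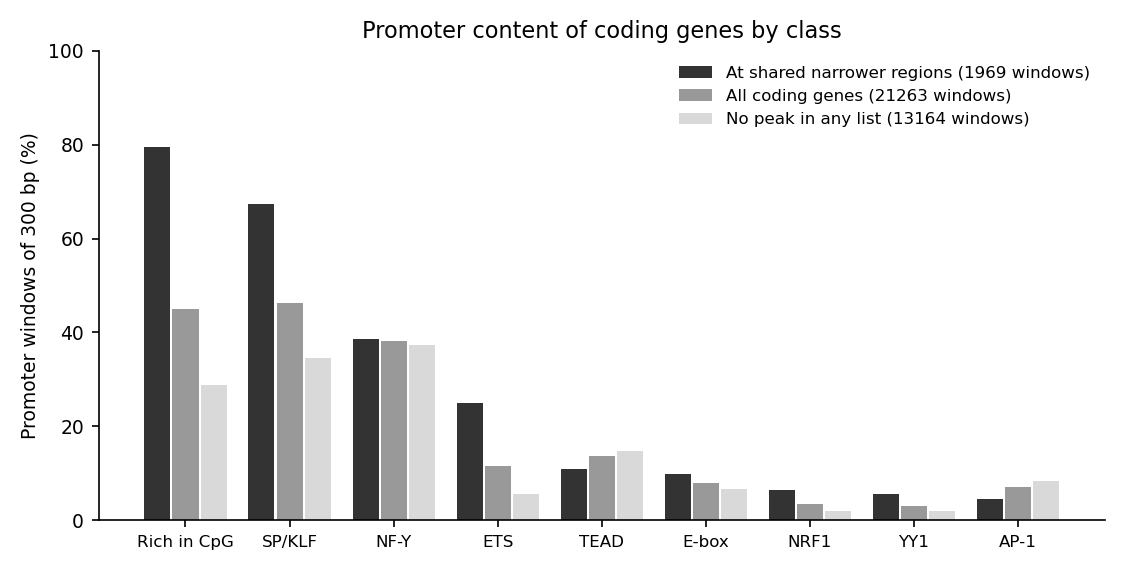
Share of 300 bp promoter windows of coding genes (vertical axis, %) that are rich in CpG or hold the letters of 8 motifs, for windows at members (black), all coding windows (grey) and windows of genes with no peak in any list (light grey). CpG-rich windows are 79.4% at members and 28.8% at genes with no peak, while NF-Y letters differ little between the 3 classes.

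Nearly all members with a known gene orientation lay at the gene's start. The gene's strand was known for the genes of the RefSeq promoter table, 17492 of 21887 coding genes. A 5′ end lay within 2 kb of 1573 members (77.4%), only 3′ ends lay near 95 (4.68%), and 364 (17.9%) had no 5′ end but at least 1 gene of unknown strand. Of stranded coding genes, 1722 (9.84%) had the 5′ end near a member and 348 (1.99%) the 3′ end, of which 164 had both. An annotated start lay inside 1470 members (72.3%), against 61.2% of the wider shared regions near gene ends, 40.0% of the 911 mesothelium-only regions, 27.3% of the 915 epithelium-only regions and 7.09% of the 1425 shared narrower regions far from gene ends. The single-cell-type regions were also narrower, with median widths of 1493 and 1612 bp.

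At members with a single 5′ end, peaks extended further into the gene than upstream of it, in every library. This was measured at 847 of the 2032 members, those with exactly 1 5′ end within 2 kb, of a coding gene and inside the region. Members with further 5′ ends, such as those of genes that start head to head, were left out. The lengths upstream therefore do not describe all members. In the 2 kb downstream of the start the mean covered length was 0.940 and 1.10 kb in mesothelium against 0.874 and 0.852 kb in epithelium. In the 2 kb upstream it was 0.446 and 0.515 kb in mesothelium against 0.413 and 0.411 kb in epithelium. The lowest ratio of downstream to upstream length over the libraries was 2.08. The share of genes under a peak was highest 275 and 325 bp downstream in mesothelium, at 75.9% and 87.1%, and 225 and 175 bp downstream in epithelium, at 73.8% and 74.4%. At 1 kb downstream the shares were 45.4% and 53.6% in mesothelium and 39.7% and 39.9% in epithelium, whereas at 1 kb upstream all 4 libraries were between 12.9% and 14.5%.

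**Figure D2:**
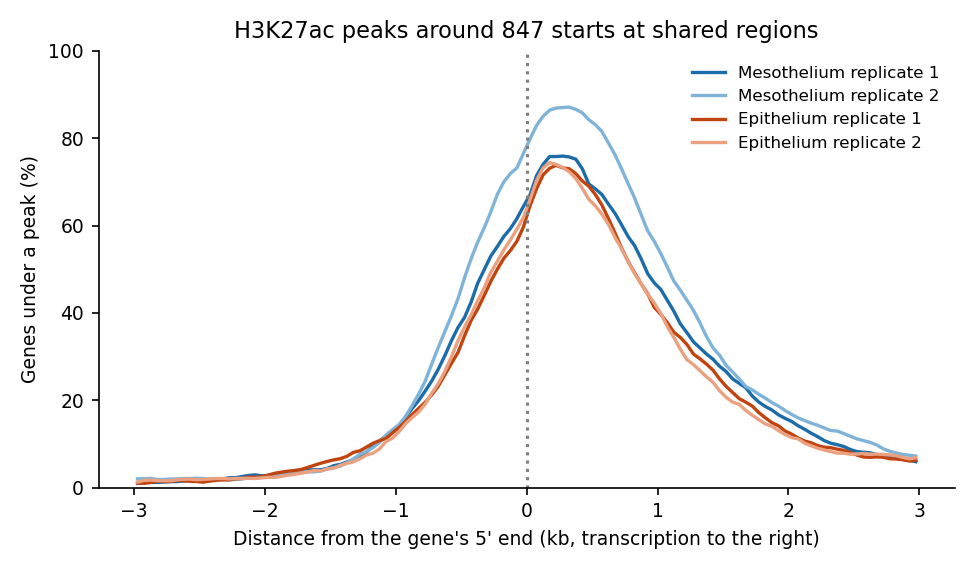
Share of 847 genes under a peak (vertical axis, %) by distance from the gene's 5′ end (horizontal axis, kb, in bins of 50 bp), 1 line per library. All 4 lines are highest downstream of the start, and mesothelium replicate 2 is the highest at 87.1%.

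Genes that share a promoter region head to head were frequent. A divergent pair was counted where the starts of 2 coding genes on opposite strands, pointing apart, lay within 1 kb. Of 581 such pairs among the 17492 coding genes of known strand, 158 (27.2%) lay at 157 members. A member lay at the 5′ end of 315 of 1154 genes in divergent pairs (27.3%) and of 1407 of 16338 other stranded coding genes (8.61%). The starts of a pair lie within 1 kb, so 1 member can count for both genes, and the genes of a pair are not separate counts. The share was 27.2% by pair and 27.3% by gene. Genes of divergent pairs were 18.3% of the genes with a 5′ end at a member, 10.2% at the wider shared regions, 11.1% at mesothelium-only and 6.46% at epithelium-only regions.

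The pairs named here were among those with the highest ranks. Cep44, a centrosomal protein gene, and Fbxo8 started 278 bp apart in chr8:56549213-56552319. Osgep, an enzyme of tRNA modification, and Apex1, a DNA repair endonuclease, started 56 bp apart in chr14:50923662-50925561, and Gtf2e1, a subunit of the general transcription factor TFIIE, and Rabl3 started 69 bp apart. Gart, an enzyme of purine synthesis, and Son, a splicing cofactor, started 852 bp apart. At the region of Gart and Son the covered lengths were 1.52 and 1.68 kb in mesothelium against 0.685 and 1.04 kb in epithelium, which did not overlap, yet the fit described below gave an adjusted p of 0.77 (limma).

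In each list the median rank of the members' best peaks lay above the middle of the list, without reaching its top 10%. The rule asks for a peak in every list, which stronger peaks may meet more readily, so these ranks are descriptions. A peak's deposited fold enrichment over the peak caller's background is the authors' own value and was used only to rank peaks within their list. The median percentile of a member's best peak was 73.0 and 81.8 in mesothelium against 70.0 and 76.1 in epithelium, at median folds of 3.91, 4.36, 3.76 and 3.86. Between 22.7% (epithelium replicate 1) and 35.7% (mesothelium replicate 2) of members had a peak in the top 10% of the list. Between 19.3% (mesothelium replicate 2) and 28.6% (epithelium replicate 1) had a best peak below the list median. The shared narrower regions away from gene ends had lower medians, between 60.0 and 67.3, and the wider shared regions had medians between 75.2 and 82.4. In mesothelium replicate 2 the members' median exceeded that of the wider regions, and in the other 3 libraries it was lower.

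**Figure D3:**
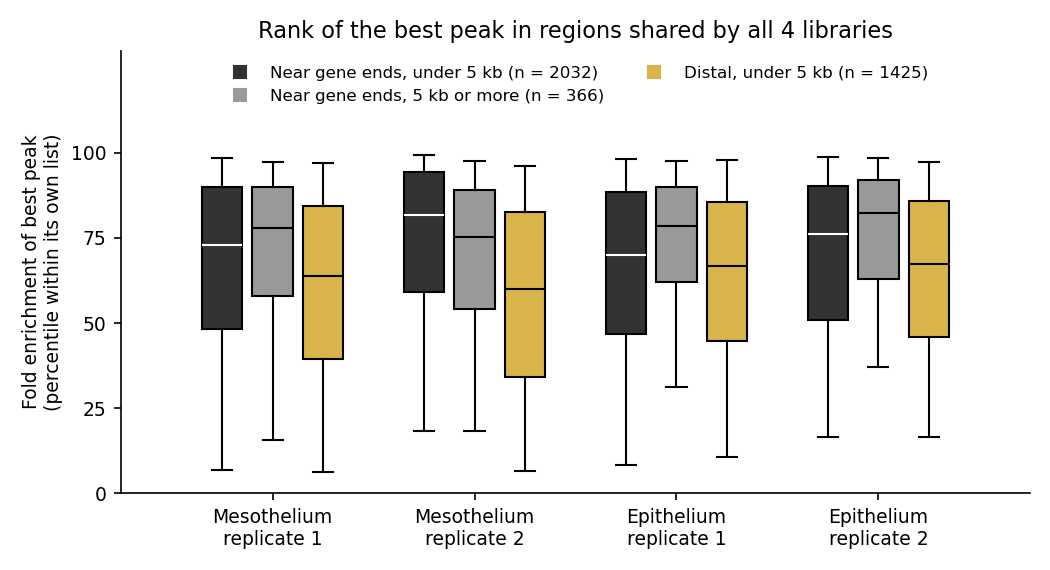
Percentile of the best peak's fold enrichment within its own list (vertical axis) by library, for members (black), wider shared regions near gene ends (grey) and shared narrower regions away from gene ends (yellow). Boxes show quartiles with the median as a line and whiskers the 5th and 95th percentiles over regions, and the members' medians lie between 70.0 and 81.8.

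A high rank in one library went with only a slightly higher rank in another. Over the 2032 members, Spearman's rho of the best fold was between 0.11 and 0.22 over the 6 pairs of libraries, and that of the covered length between 0.20 and 0.27. For the best fold the replicates were no closer, with 0.17 in mesothelium and 0.12 in epithelium against 0.11 to 0.22 across cell types. For the covered length they reached 0.27 in each cell type, against 0.20 to 0.25 across. The regions of a library share its depth, and these are descriptions. The lowest of a member's 4 percentiles had a median of 39.6, reached at least 90 in 36 members and was under 10 in 374. Krt8, a keratin of simple epithelia and mesothelium, showed such a spread, with percentiles of 0.636 and 31.5 in mesothelium against 69.4 and 65.4 in epithelium.

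The members with the highest lowest percentile stood out in all 4 lists. Dis3l had folds of 5.95 and 7.80 in mesothelium against 6.52 and 6.33 in epithelium, all within the top percentile of their lists. Flcn had 7.84 and 8.14 in mesothelium against 5.64 and 7.01 in epithelium, and its covered lengths of 1.32, 1.59, 1.24 and 1.45 kb overlapped between cell types. Others of the top 10 included Gm23971, annotated as a small nuclear RNA, Bccip with Uros, Tra2a, the non-coding Gm52713, Eif3b, Cep44 with Fbxo8, and Smarce1 with Krt222. Tra2a encodes a splicing regulator, Eif3b a subunit of a translation initiation factor and Smarce1 a subunit of the SWI/SNF remodelling complex. Tra2a had no base covered in all 4 libraries although its 4 peaks merged into 1 region.

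A −log10 q of at least 2 in all 4 lists was reached by 331 members, and one of at least 4 by 6 members: Hjurp, Flcn, Gm23971, Dis3l and a pair of pseudogene regions on chromosome 8, at Gm10060 and at 6820431F20Rik with Gm20583. Gm10060 had −log10 q values of 19.8, 15.5, 12.3 and 6.00, the first 3 far above those of Dis3l, at folds of 4.84, 4.01, 4.63 and 3.14. At such pseudogenes reads of near-identical copies may be placed together or split, and how the authors treated them is not given in the sources used here.

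The peaks of a member often overlapped only in part. Members had a median width of 2545 bp, with quartiles of 1928 and 3414 bp and a range from 545 bp at Psmd7 to 4987 bp at Ppp4r3b. A base covered in all 4 libraries was found in 1616 members (79.5%), over a median of 513 bp or 22.3% of the width, and 416 members had none. The share with such a base was 72.1% for the wider regions and 61.2% for the regions away from gene ends. Single libraries covered 55.4% and 64.6% of the members' width in mesothelium and 54.0% and 52.3% in epithelium, mostly with 1 peak.

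The limits of the rule cut through a continuous range. Just under 5 kb lay Kif5b and Cnot6l, each with 4986 bp, and Ppp4r3b, and just over it Sec23a and Cspp1 with 5003 bp and Hnrnpa2b1 with 5005 bp. Just within 2 kb of a gene end lay Syt8 at 1966 bp, Mta1 at 1986 bp and Rpl12 at 2000 bp, and just beyond it Mucl3 at 2011 bp, Gm41308 at 2022 bp and Sspn at 2026 bp. A gene end lay inside 1706 members (84.0%).

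Genes for protein synthesis, folding, respiration and the cytoskeleton had members more often than coding genes at large, of which 2313 of 21887 (10.6%) did. The gene lists were set up with earlier results of these data known, and their shares are counts without a test. Other lists also exceeded 10.6%: cell cycle and replication genes had 22.5%, and nuclear receptors and TGF-beta SMADs 20.8%. Histone acetylation genes had 19.4%, SWI/SNF and Polycomb genes 19.4%, and glycolysis 15.8% (3 of 19). The coding genes at large include 11285 with promoter windows but no peak in any list, so the higher shares are not particular to the functions named. Of the 32 chaperones, which fold other proteins, 20 (62.5%) had a member. They included Cct3, Cct4, Cct5, Cct6a, Cct7 and Tcp1, subunits of the cytosolic chaperonin, and Hspd1 with Hspe1, the mitochondrial chaperonin and its cochaperonin. The region of Cct7 was covered over 4.21 and 3.77 kb in mesothelium against 2.13 and 2.16 kb in epithelium, and the groups did not overlap, but the difference had an adjusted p of 0.67 (limma). The region of Hspd1 and Hspe1 was covered over 0.952 and 1.58 kb in mesothelium against 1.35 and 2.15 kb in epithelium, with overlapping groups.

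Members also lay at genes of the ribosome and of translation. Members lay at 27 of 83 cytosolic ribosomal protein genes (32.5%), 22 of 73 translation factor genes (30.1%) and 18 of 78 mitochondrial ribosomal protein genes (23.1%). Rps7 had folds of 5.76 and 4.24 in mesothelium against 8.05 and 4.19 in epithelium. Rpl15 was more even, at 4.84, 4.92, 4.25 and 4.28, with 2.00, 1.72, 1.53 and 1.64 kb covered. The respiratory chain had 26 of 86 genes at members (30.2%), among them Cox7c, Uqcrh, Atp5c1 and Sdha. Splicing and hnRNP genes had 16 of 67 (23.9%), the proteasome 11 of 47 (23.4%), and RNA polymerase II, its general factors and Mediator 19 of 88 (21.6%). Some of these counts depended on 1 library. The ribosomal count was 41 without epithelium replicate 2, those of splicing and the proteasome 26 and 18 without epithelium replicate 1, and that of RNA polymerase II 29 without mesothelium replicate 1. With 1 library left out, coding genes with a member also rose, to between 2628 and 3064. At 5′ ends alone, which leaves out genes of unknown strand, the ribosomal count was 15 and the proteasome count 7. With a base covered in all 4 lists the count for RNA polymerase II was 11. Coding genes with a member fell as well, to 1722 at 5′ ends alone and 1877 with such a base.

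Structural and signalling lists were mixed. Actin cytoskeleton genes had members at 15 of 38 (39.5%), among them Actb, Actg1, Vcl and Myh9. The region of Actb, a cytoplasmic actin, was covered over 1.29 and 0.931 kb in mesothelium against 2.97 and 2.96 kb in epithelium, which did not overlap (adjusted p = 0.51, limma). Of 20 genes of the YAP and TEAD pathway, which relays mechanical and contact signals, 6 (30.0%) had a member: the coactivators Yap1 and Wwtr1, the kinase Lats1, Amotl1, Vgll4 and Tead3. Yap1 was covered over 1.97 and 1.90 kb in mesothelium against 1.59 and 2.68 kb in epithelium. Replication-dependent histone genes had 14 of 58 (24.1%) and a further 12 at wider shared regions, but 24 without mesothelium replicate 1 and 4 with a base covered in all 4 lists. Immediate early genes, which respond rapidly to stimulation, had 5 of 38 (13.2%): Jun, Fosl2, Klf6, Nfkbiz and Zfp36. A further 4 lay at wider shared regions, and 10 had a member without mesothelium replicate 1 and likewise without mesothelium replicate 2.

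Few genes on the lists of the sorted cell types had a member. Among 28 lung epithelial transcription factors Foxp1 had one (3.57%), and 4 others lay at wider shared regions. That count was 0 without mesothelium replicate 1, 3 without mesothelium replicate 2, 2 without epithelium replicate 1 and 0 with a base covered in all 4 lists. Among 31 mesothelial genes Krt8, Myrf, Nr2f2 and Tmem98 had one (12.9%), beside the 10.6% of all coding genes, and 1 other lay at a wider shared region. The mesothelial count was 2 within 1 kb of a gene end and 0 with peaks of −log10 q of at least 2. Without the width limit the epithelial and the mesothelial list each had 5 genes, so no difference between the lists is read from these counts. The Myrf region also lies at Fen1 and Tmem258, so it does not single out Myrf. None of the sort, endothelial, immune or mesenchymal markers had a member, and none of 1464 olfactory and vomeronasal receptor genes did. Shares were 3.69% for 12727 lncRNA genes, 3.99% for 1228 miRNA genes and 0.583% for 9944 pseudogenes. On the X chromosome 15 of 966 coding genes (1.55%) had a member, and it held 12 members in all, such as Kdm6a and Ddx3x. The X chromosome held between 1.80% and 2.23% of each list's peaks, and no member lay on Y.

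**Figure D4:**
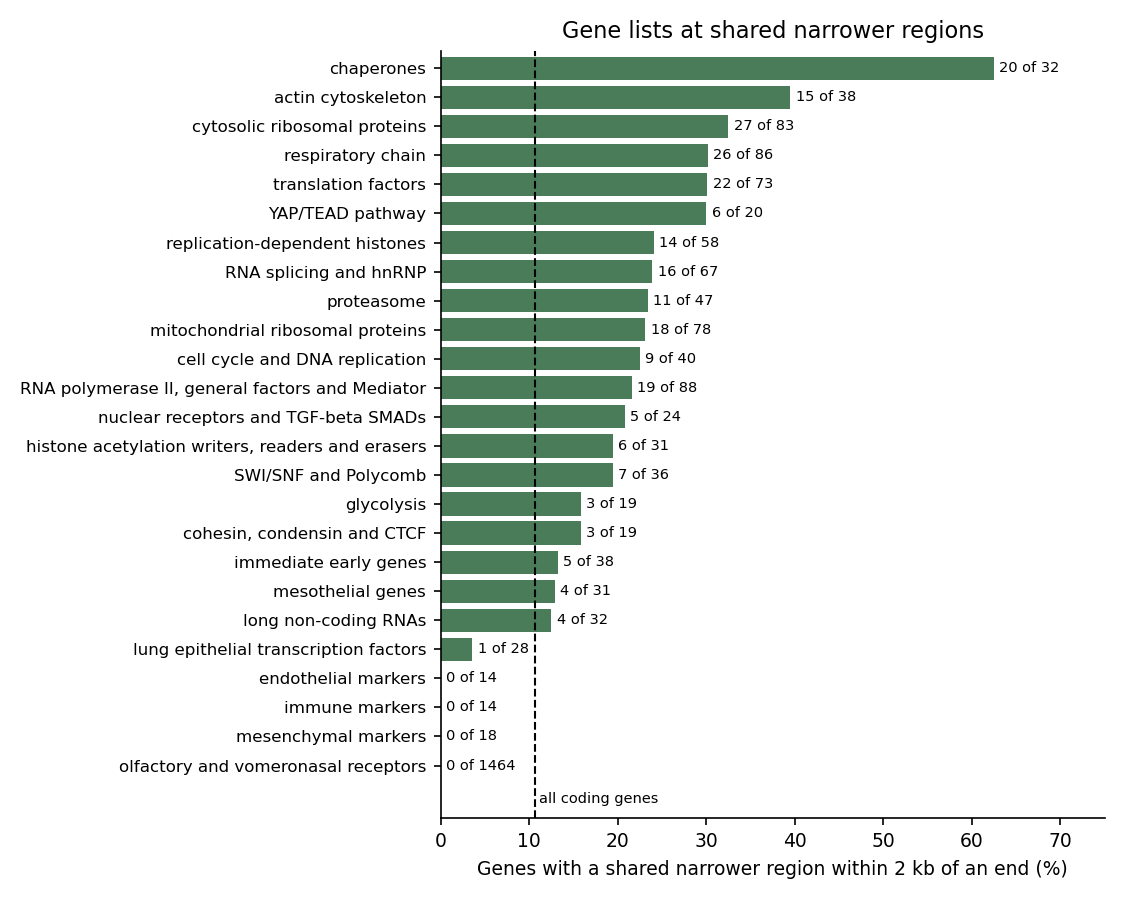
Share of genes with a member within 2 kb of an end (horizontal axis, %) for lists of more than 10 genes, with counts beside the bars. The dashed line marks the 10.6% of all coding genes, and chaperones stand highest with 20 of 32.

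The mean covered length of members was higher in both mesothelium libraries than in both epithelium libraries, which 2 against 2 libraries cannot settle. It also says little about single members. The mean covered length per member was 1.49 kb in mesothelium replicate 1, 1.73 kb in replicate 2, 1.45 kb in epithelium replicate 1 and 1.40 kb in replicate 2. The means were 1.61 ± 0.174 kb for mesothelium against 1.43 ± 0.0322 kb for epithelium (SD, n = 2 each), and the groups did not overlap (two-sided exact permutation p = 0.333, the smallest that 2 against 2 allows). Mesothelium replicate 2 also had the highest folds and the highest profile at starts, and the part of depth or cell number in this was not tested.

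No single member passed the test between cell types. The covered length was fitted on the log2 scale for all 4281 shared regions with limma and Benjamini-Hochberg adjustment, and 0 members and 0 regions in all (0%) had an adjusted p under 0.05. At an unadjusted p under 0.05 there were 71 members (3.49%) and 411 regions in all (9.60%). The smallest adjusted p of a member was 0.193. Both mesothelium libraries were longer than both epithelium libraries in 502 members (24.7%), against 21.2% of all shared regions, and the reverse held in 258 members (12.7%) against 19.4%. The members' median log2 difference was 0.18 and that of all shared regions 0.03. The log2 difference lay between -1 and 1 in 77.5% of members and in 70.3% of all shared regions. The median SE of a member was 0.81, so a member that was not called is not shown to be alike in the cell types. The rule limits how wide a member can be, so large differences were bounded by the choice.

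The largest differences between the cell types did not pass the test. At Psmb1, a proteasome subunit, and Tbp, the TATA-binding protein, 1.40 and 3.83 kb were covered in mesothelium against 0.311 and 0.310 kb in epithelium. The log2 difference there was 2.85 (SE 0.83, adjusted p = 0.22, limma), and no base was covered in all 4 libraries. At Tab1, an adaptor of the kinase TAK1, 0.774 and 0.368 kb were covered in mesothelium against 2.96 and 3.55 kb in epithelium. The log2 difference was -2.65 (SE 0.83, adjusted p = 0.25, limma).

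Around the members, some of their genes carried acetylation that differed between the cell types. The gene's domain, its body and the nearer intergenic bases up to 50 kb on each side, was tested in the same way over 10486 coding genes, on log2(kb + 0.5). Of 2139 tested genes with a member, 7 were called longer in mesothelium, against 1.41% of all tested domains, and 12 longer in epithelium, against 2.53%. Together these were 0.888% of the members' genes. A domain with a member has, by the rule, a peak in every library in or beside it, which makes the 2 cell types more alike, so nothing is read from the lower share. With the members' own bases taken out, 33 of 1331 members' genes (2.48%) were called, 20 longer in mesothelium and 13 in epithelium, beside 1.84% and 2.83% of all 9665 domains tested that way. The split of 7 and 12 became 5 and 2 with scaling to total covered length, 12 and 11 without mesothelium replicate 2, 6 and 2 without epithelium replicate 1, and 3 and 1 without epithelium replicate 2. The 19 genes became 0 with log2(kb + 0.1), 0 with peaks of −log10 q of at least 2, 4 without epithelium replicate 2 and 46 without mesothelium replicate 1.

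The sort was checked on marker genes, none of which had a member. The domains of 6 epithelial markers summed to 18034 and 2473 bp in mesothelium against 89791 and 115464 bp in epithelium. Those of 6 mesothelial markers summed to 14972 and 38068 bp in mesothelium against 1817 and 6103 bp in epithelium. Mesothelium replicate 1 thus held more epithelial marker length than replicate 2. The mesothelium libraries also had more length at markers of other cells: 8 mesenchymal markers summed to 14339 and 22623 bp against 3329 and 3158 bp, and 8 endothelial markers to 15570 and 11237 bp against 3639 and 4516 bp. The domains of 6 immune markers summed to 654 and 0 bp in mesothelium against 0 and 1739 bp in epithelium. No list had a peak at Twist1 (mesenchyme), Sox17 (endothelium), or Lyz2 and Tyrobp (immune cells). The part of these in the domains longer in mesothelium was not tested, and more cells of another type cannot be told apart from more acetylation per cell.

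Wdr11, a gene of vesicle transport, had the smallest adjusted p among these genes. Its start lay in the member chr7:129591509-129592810, covered over 0.986 and 0.968 kb in mesothelium against 1.30 and 0.777 kb in epithelium. The whole domain was covered over 1.88 and 1.39 kb in mesothelium against 18.4 and 20.7 kb in epithelium. The log2 difference was -3.18 (SE 0.50, adjusted p = 9.2e-04, limma). The 2 cell types overlapped at the shared start and were apart over the domain. With only 5 kb on each side of the gene the difference was -0.48 (adjusted p = 0.79, limma), and the call was lost.

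Ddr2 and Serinc5 were longer in mesothelium. Ddr2, a collagen receptor kinase, had 9.05 and 15.4 kb covered in mesothelium against 0.594 and 1.20 kb in epithelium, a log2 difference of 3.24 (SE 0.59, adjusted p = 0.0029, limma). Its member lay beyond its 3′ end and was covered over 0.415 and 0.944 kb in mesothelium against 3.29 and 0.732 kb in epithelium. With members' bases taken out, the domain had 9.05 and 15.4 kb in mesothelium against 0 and 1.20 kb in epithelium. Only epithelium replicate 1 therefore had a member's bases inside the domain, and they were all of its 0.594 kb. Serinc5, a membrane protein gene, had 13.2 and 26.7 kb in mesothelium against 2.60 and 3.91 kb in epithelium, a log2 difference of 2.45 (SE 0.48, adjusted p = 0.0049, limma). The member at its start was covered over 2495 and 1502 bp in mesothelium against 443 and 1332 bp in epithelium. Wdr11, Ddr2 and Serinc5 were the 3 of the 19 genes that passed with each of the 4 libraries left out in turn.

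The other called genes included regulators of transcription and signalling. Among those longer in mesothelium were Map7d1, Aak1, Map4k3 and Zbtb20, a repressor with 24.9 and 31.1 kb against 13.6 and 9.07 kb. Longer in epithelium were Exph5, Bfsp1, Coro7, Ccdc25, Mad1l1, Mapk14, Abcd3, Bahcc1, Ppp1r9a, Tgfbr2 and Pkp4. Tgfbr2, a receptor for TGF-beta, had 8.96 and 5.99 kb in mesothelium against 21.2 and 24.7 kb in epithelium (adjusted p = 0.029, limma). Exph5, a regulator of vesicle traffic, had 0.745 and 2.07 kb in mesothelium against 11.2 and 10.9 kb in epithelium (adjusted p = 0.011, limma). Each of the 16 called genes other than Wdr11, Ddr2 and Serinc5 lost its call without at least 1 library, and epithelium replicate 2 was among these for all 16.

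Some genes passed only when the members' bases were left out. By the rule both cell types have length at a member, and taking it out can enlarge the log2 difference. Nothing beyond the lengths is therefore read from such calls. Itgb1, the integrin beta 1 chain, had 6.64 and 7.10 kb outside its member in mesothelium against 0.526 and 1.72 kb in epithelium, a log2 difference of 2.39 (adjusted p = 0.034, limma). In the whole domain its adjusted p was 0.11 (limma).

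**Figure D5:**
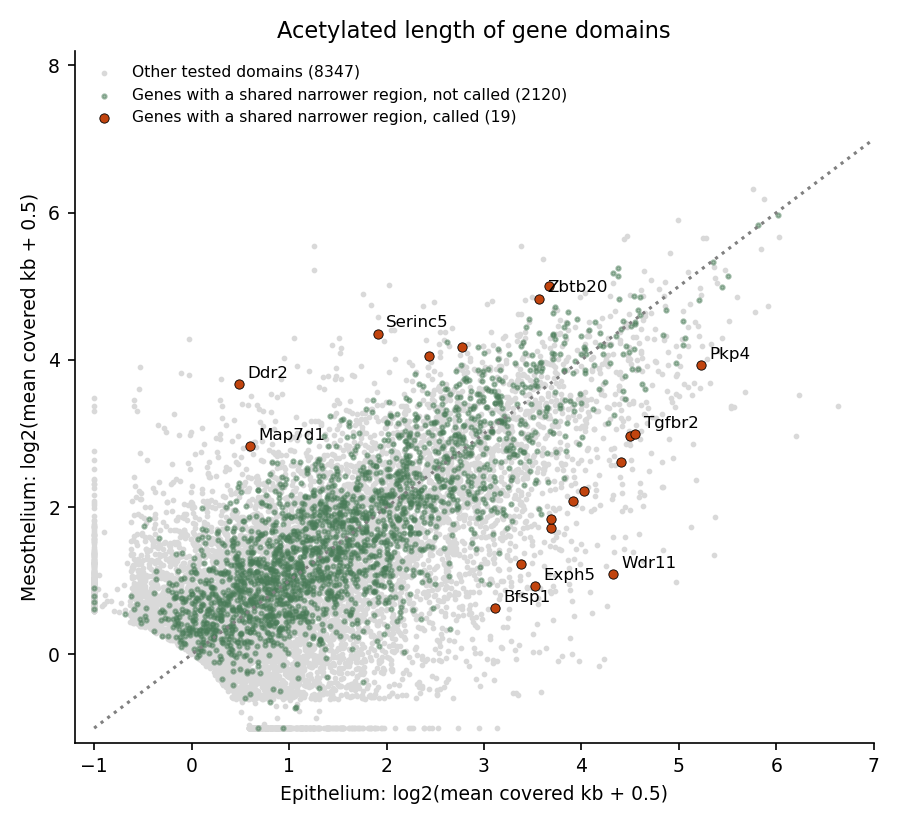
Mean covered length of gene domains in epithelium (horizontal axis) and mesothelium (vertical axis), both as log2(mean kb + 0.5) over 2 libraries, for members' genes that were called (red), members' genes not called (green) and other tested domains (grey). The 19 called genes lie away from the dotted line of equality, with Wdr11 low in mesothelium and Ddr2 and Serinc5 high.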

How the data were processed

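H3K27ac CUT&RUN libraries from sorted E16.5 mouse lung cells were analysed as the deposited broad peak lists, 1 per library, with 39006, 41524, 47869 and 46632 peaks on chromosomes 1 to 19, X and Y. The submitters' processing notes name, without roles, MACS2 2.2.9.1, Bowtie2 2.5.3, bedtools 2.31.1, cutadapt 4.8, DiffBind 3.6.5, deepTools 3.5.5, HOMER, FastQC and edgeR, and the build mm10. Neither the peak threshold nor the use of the IgG libraries is given in the sources used here. The deposited score was not used. The deposited fold is the authors' enrichment over the peak caller's background, and ranked peaks within a list. The deposited −log10 q values filtered peaks in alternatives, and −log10 p was not used. The lists hold no counts, so depth is unknown, and a missing peak is not missing acetylation.

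Overlapping or touching peaks were merged, and members were selected on presence in all 4 lists, width and distance to gene ends of the RefSeq table of GRCm38.p6. Strand and promoter sequence came from the RefSeq promoter table, in which 1906 of the members' 2313 coding genes (82.4%) matched. Covered lengths were fitted with limma 3.58.1 (R 4.3.3) with an intensity trend, median-centred, with Benjamini-Hochberg adjustment: log2(kb) for regions, and log2(kb + 0.5) for domains averaging 0.5 kb or more. The rest ran in Python 3.11.15 with numpy 2.4.6, pandas 2.3.3, matplotlib 3.10.9 and scipy 1.17.1. Interval and limma steps were tested on simulated data. Groups came from the sample titles.

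The members, gene lists and tests were chosen with earlier results of these data known. Of 469 list entries, 16 matched no gene. Named were the 10 members ranking highest by the lowest of their 4 percentiles, the widest and narrowest, those at the limits of the rule, the largest region and domain differences, the highest ranked genes per list and at 2 or more coding genes, and up to 8 promoters. Other named genes, such as members on X, those with −log10 q of at least 4, Cct3, Actg1, Myh9, Gart, Son and Itgb1, were chosen after their values were seen. A few genes that the rule names are not reported here. Alternatives covered the peak threshold, number of peaks, merging, overlap, distance, width, gene class, scaling, pseudocount, filter, domain, a replicate block and each library left out in turn.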

Additional observations from a re-analysis of the deposited data

How the results depend on the processing

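The number of members fell from 2032 to 335 with peaks of −log10 q of at least 2, to 6 with at least 4, and to 1329 under 3 kb. It ranged from 2470 to 2766 with 1 library left out, and stayed within 1.5 times under the other alternatives. Their coding genes numbered 390 and 3 with the stricter peaks, against 2313, and 2628 to 3064 with 1 library left out. Under alternatives chosen after seeing the data, the lowest downstream to upstream ratio was 2.14 with a base covered in all 4 lists, and not lower at −log10 q of at least 2. CpG-rich windows were 79.6% and 76.5% under these, and divergent genes 18.7% and 16.3%.

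No member was called in any alternative fit of region lengths, and 0 members were called with each library left out. Over all 4281 shared regions, 28 were called with the replicate numbers as a block and 70 without mesothelium replicate 1, none of them a member. Scaling to total covered length moved the median difference of regions from 0.03 to 0.26.

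The 19 members' genes called by domain became 0 with log2(kb + 0.1), 0 with peaks of −log10 q of at least 2, 7 with scaling to total covered length, 6 with 5 kb flanks and 33 without the members' bases. Over the libraries left out they ranged from 4 (without epithelium replicate 2) to 46 (without mesothelium replicate 1), with 8 without epithelium replicate 1. All 19 kept their direction in 11 alternatives, and 107 of those 209 values passed. With the replicate block 25 were called. Deviations of libraries with the same number correlated at 0.047 over regions and 0.034 over domains, and nothing in the labels pairs them. The lists give no depth, and 2 libraries a group limit every test.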
